A study of Mus musculus with 16 samples.

Results

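The Ms4a genes encode small proteins that cross the membrane 4 times. Here 8 of them were chosen with earlier results of these data known, and matched by symbol to the annotation of the array. A probe set was found for 7, namely Ms4a1, Ms4a4b, Ms4a4c, Ms4a6b, Ms4a6c, Ms4a6d and Ms4a7, out of 19505 genes tested. Ms4a4a is not analysed here. Each of the 7 had 1 probe set. The values come from liver biopsies of C57BL/6 mice, 8 labelled control and 8 labelled NASH model (nonalcoholic steatohepatitis, the inflamed form of fatty liver). The series' title concerns the enzyme soluble guanylate cyclase, but no sample is labelled with a drug or other treatment, and the labels give neither age nor sex nor how the model was made. Samples are named by their group and the number in their label. The NASH model group includes samples 1a and 1b, and the labels do not say whether these come from the same animal.

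Different leukocytes use different members of this family. Ms4a1 is CD20, a surface protein of B cells that regulates calcium entry after the antigen receptor is engaged. Ms4a2 is the beta chain of the high-affinity IgE receptor of mast cells and basophils. Ms4a4b is found on T cells, where it modulates activation, and Ms4a7 and genes of the Ms4a6 group are expressed by monocytes and macrophages. The genes lie side by side in a cluster that arose by duplication, and some neighbouring members are closely alike.

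In the NASH model livers 6 of the 7 measured members were higher and 0 were lower, against 13.2% of all genes called higher and 26.6% called in either direction (limma, adjusted p under 0.05; unadjusted p under 0.05 gave the same 6 and 0). Ms4a7 rose 11.2-fold (7.79-fold with values under the background floor set to it), Ms4a6d 4.40-fold, Ms4a6b 3.46-fold, Ms4a4c 3.35-fold and Ms4a6c 2.71-fold. Ms4a4b rose from levels at background in the controls. Ms4a1 was the exception, with a difference of -0.29 ± 0.17 (log2, SE) that did not pass (adjusted p = 0.22). The median difference over the 7 was 1.74 on the log2 scale, against -0.04 over all genes. In 5 of the 7 the rise was at least 1 on that scale, against 4.02% of all genes. The same 5 did not overlap between groups, with the NASH model higher, against 5.65% of all genes (9.54% in either direction). With all genes, 49.6% of the calls were higher in the NASH model, and this share depended on scaling, at 39.2% with array medians and 73.4% with spike-in controls as the reference, while the same 6 members were called higher under each. The members were chosen with earlier results of these data known, so their counts do not stand for the family. Over all 18 measured Ms4a genes of chromosome 19, 7 were called higher and 0 lower. In bulk tissue, more or fewer cells of a type and more or less RNA per cell cannot be told apart.

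The duplications can be seen in the sequence before the start sites. RefSeq (GRCm38.p6) gave windows of 300 bases for 6 of the 8 members, 7 windows in all because Ms4a7 has 2, and none was found for Ms4a1 or Ms4a6d. When the 250 bases before each start were aligned to each other, the windows of Ms4a6c and Ms4a6b were 81.9% identical over 182 aligned columns, with a run of 48 identical bases. The windows of Ms4a4c and Ms4a4b were 72.7% identical over 249 columns. The other pairs lay between 47.7% and 56.2%, with no identical run longer than 8 bases. The aligned stretches of both pairs are shown because their windows were the most alike. Whether the shared sequence has a part in the rises was not tested. Capitals mark runs of at least 10 bases shared by the pair, all 4 stretches lie on the + strand, and they are at chr19:11469191-11469366 for Ms4a6c, chr19:11518309-11518488 for Ms4a6b, chr19:11407423-11407660 for Ms4a4c and chr19:11443316-11443553 for Ms4a4b.
Ms4a6c: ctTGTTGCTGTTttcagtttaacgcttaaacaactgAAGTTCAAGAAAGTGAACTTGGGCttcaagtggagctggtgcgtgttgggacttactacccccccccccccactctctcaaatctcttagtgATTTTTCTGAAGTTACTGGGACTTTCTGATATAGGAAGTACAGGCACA
Ms4a6b: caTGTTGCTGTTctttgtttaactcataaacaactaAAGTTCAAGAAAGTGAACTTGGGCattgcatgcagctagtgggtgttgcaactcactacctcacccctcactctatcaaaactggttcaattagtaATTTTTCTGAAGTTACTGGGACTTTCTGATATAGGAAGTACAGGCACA
Ms4a4c: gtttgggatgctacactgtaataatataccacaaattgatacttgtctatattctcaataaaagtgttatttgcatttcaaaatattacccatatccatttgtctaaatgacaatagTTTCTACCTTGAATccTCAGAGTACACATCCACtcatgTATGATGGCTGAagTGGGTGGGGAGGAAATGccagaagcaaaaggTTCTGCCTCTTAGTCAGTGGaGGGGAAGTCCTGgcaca
Ms4a4b: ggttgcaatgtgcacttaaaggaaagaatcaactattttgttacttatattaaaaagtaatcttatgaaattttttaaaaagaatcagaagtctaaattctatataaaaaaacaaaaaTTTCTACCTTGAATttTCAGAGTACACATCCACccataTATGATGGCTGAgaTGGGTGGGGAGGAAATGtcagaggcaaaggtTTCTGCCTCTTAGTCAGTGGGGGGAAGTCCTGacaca

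The stretch of Ms4a6c runs from 177 to 2 bases before its start site, and that of Ms4a6b from 250 to 71, so the RefSeq starts of the pair sit at different places in the shared sequence. Exact matches were counted on both strands of the 7 windows. GAGGAA, the core bound by the myeloid and B cell factor PU.1, was in 3 windows, against 28.3% of all 32851 windows of that length. In Ms4a4c and Ms4a4b it lies in the shared capitals, 61 and 64 bases before the start. The longer GAGGAAGT, which contains it, was in 0 of the 7 (3.2% of all windows), as were the C/EBP motifs TTGCGCAA (0.183%) and TTGCAAAA (1.09%). The octamer ATGCAAAT was in 1, that of Ms4a4c (1.74%). GAAANNGAA, part of the motif of interferon regulatory factors and searched only after the sequences had been read, was in 4 windows, against 8.56% of all. Both windows of Ms4a7 hold it, and in Ms4a6c and Ms4a6b it lies in the shared stretch, 133 and 206 bases before the start. These matches describe letters and say nothing of binding.

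Ms4a7, expressed by macrophages, had the largest rise of the family. Its log2 intensity ran from 1.65 to 3.49 in the controls, with a median of 2.40, and from 5.21 to 6.56 in the NASH model, with a median of 6.08. Every NASH model sample lay above every control. The mean went from 2.50 ± 0.69 to 5.98 ± 0.49 (log2, SD, n = 8 per group), a difference of 3.48 ± 0.26 (SE; limma adjusted p = 7.2e-09). Among the controls, 5 samples were below the background floor of 2.89, which is the 95th percentile of olfactory and vomeronasal receptor genes, so background limits the size of this fold. With every value under the floor set to it, a setting chosen after seeing the data, the rise was 7.79-fold (adjusted p = 7.4e-09). In the NASH model the highest values were those of samples 7 (6.56), 6 (6.38) and 3 (6.34), and the lowest that of sample 5 (5.21).

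**Figure D1:**
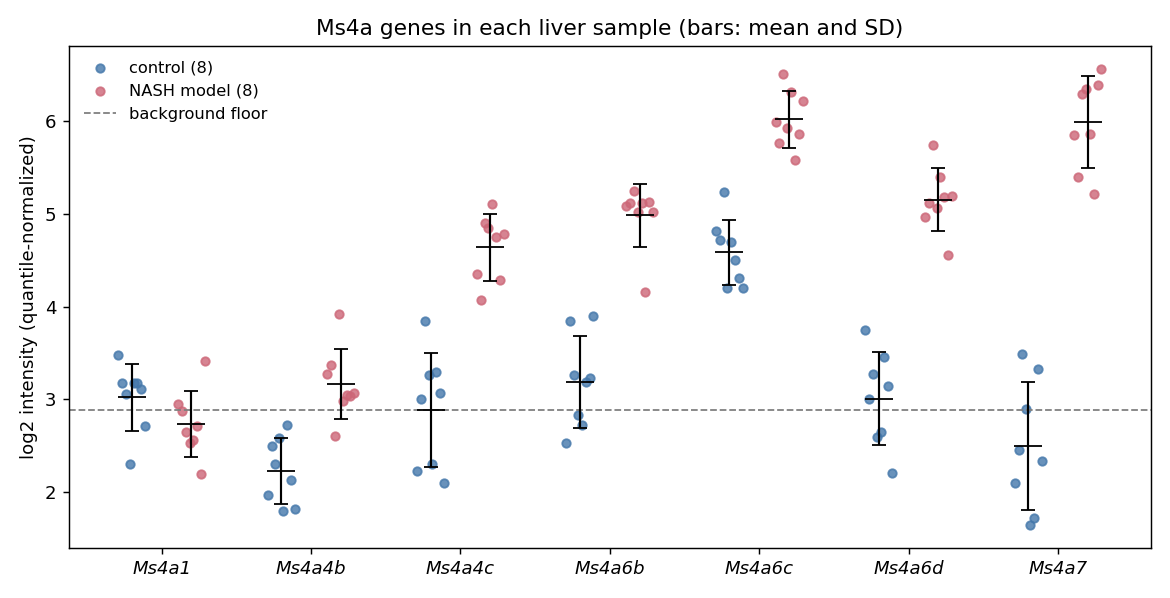
Log2 intensity of the 7 measured Ms4a genes in each of 8 control and 8 NASH model liver samples. Black bars give the mean and SD of each group, and a dashed line the background floor of 2.89. The groups are apart in Ms4a4c, Ms4a6b, Ms4a6c, Ms4a6d and Ms4a7, overlap slightly in Ms4a4b and overlap broadly in Ms4a1.

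The 3 measured genes of the Ms4a6 group, which are found on monocytes, macrophages and some lymphocytes, all rose. Ms4a6d ran from 2.21 to 3.75 in the controls (median 3.07) and from 4.56 to 5.74 in the NASH model (median 5.15), with no overlap. Its mean went from 3.01 ± 0.50 to 5.15 ± 0.34 (log2, SD), a difference of 2.14 ± 0.19 (SE; adjusted p = 8.2e-08). Sample 2 was the highest of the NASH model samples and sample 6 the lowest, while 3 controls were under the floor. Ms4a6b ran from 2.53 to 3.90 in the controls (median 3.21) and from 4.16 to 5.24 in the NASH model (median 5.09). The difference was 1.79 ± 0.19 (log2, SE; adjusted p = 7.2e-07). In the NASH model 7 samples lay within 5.02 to 5.24, and sample 5, at 4.16, lay apart from them but still above the highest control. Ms4a6c was above the floor in all 16 samples. It ran from 4.20 to 5.23 in the controls (median 4.59) and from 5.58 to 6.50 in the NASH model (median 5.96), again with no overlap. The mean went from 4.58 ± 0.35 to 6.02 ± 0.30 (log2, SD), a difference of 1.44 ± 0.15 (SE; adjusted p = 7.5e-07). With all samples above background, this fold is the least affected by the floor.

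The 2 measured genes of the Ms4a4 group among the members also rose. Ms4a4c, expressed by myeloid cells and lymphocytes, ran from 2.10 to 3.84 in the controls (median 3.04) and from 4.07 to 5.10 in the NASH model (median 4.76). The groups did not overlap, and the difference was 1.74 ± 0.22 (log2, SE; adjusted p = 6.4e-06). Ms4a4b was dim. Its 8 controls, from 1.80 to 2.72 (median 2.22), were all below the floor, and the NASH model samples ran from 2.61 to 3.92 (median 3.06). Sample 2 of the NASH model was at 2.61, inside the control range and under the floor, and sample 3 was the highest at 3.92. The difference was 0.93 ± 0.17 (log2, SE; adjusted p = 2.9e-04). Against the floor this is a rise of at least 1.21-fold. With every value under the floor set to it the difference was 0.31 ± 0.11 (adjusted p = 0.045).

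Ms4a1, the B cell gene, ran from 2.30 to 3.48 in the controls (median 3.14) and from 2.20 to 3.41 in the NASH model (median 2.68). The ranges overlapped almost wholly, and 2 controls and 6 NASH model samples were below the floor. The 95% confidence interval of the difference ran from -0.64 to 0.06 on the log2 scale, below the intervals of all 6 members that rose, the lowest of which was that of Ms4a4b (0.58 to 1.29). The interval does not exclude a small fall, and at levels this near background the size of a difference is not well measured.

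**Figure D2:**
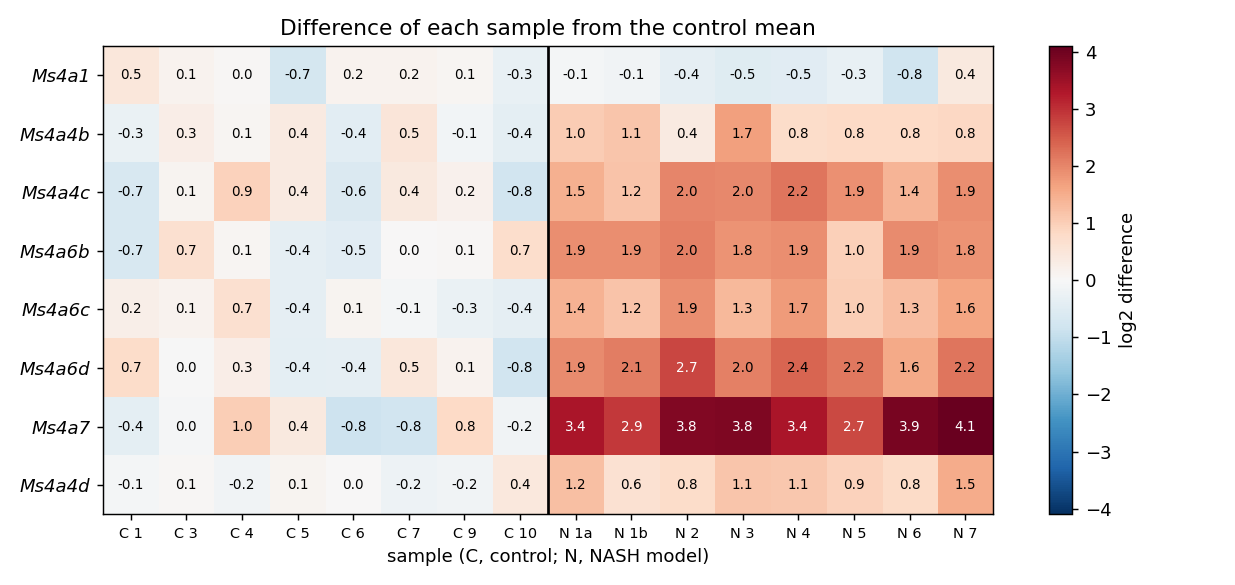
Difference of each sample from the control mean, on the log2 scale, for the 7 measured members and the neighbouring family gene Ms4a4d, with controls at left and NASH model samples at right. Ms4a7 is the darkest row, from 2.71 to 4.06 in the NASH model samples, and Ms4a1 stays between -0.82 and 0.45 in all 16 samples.

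The members did not order the samples in the same way. For the 6 genes that rose, the median difference of a NASH model sample from the control means ran from 1.43 (sample 5) to 2.06 (sample 4) on the log2 scale. Sample 2 was the highest in 3 of the 6 (Ms4a6b, Ms4a6c and Ms4a6d) and the lowest in 1 (Ms4a4b). Sample 5 was the lowest in 3 (Ms4a6b, Ms4a6c and Ms4a7). Among the controls, sample 4 was above the group's median in all 6 and the highest in 3 (Ms4a4c, Ms4a6c and Ms4a7), while samples 6 and 10 were above the median in 1 each. Control 10 was nevertheless the highest control for Ms4a6b, at 3.90.

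Along chromosome 19, RefSeq places 21 Ms4a genes, of which 18 were measured, and the Ms4a genes that rose were neighbours. From Ms4a7 to Ms4a6d there are 8 Ms4a genes, Ms4a7, Ms4a4a, Ms4a4c, Ms4a4b, Ms4a6c, Ms4a6b, Ms4a4d and Ms4a6d. All 7 of these with a probe set rose, with limma adjusted p of at most 2.9e-04, against 13.2% of all genes called higher. This run was drawn from the first to the last Ms4a gene called higher, so no Ms4a gene outside it could be called higher. Of the 11 measured genes on either side, 0 were called by limma (0 also at an unadjusted p under 0.05), against 13.4% of all genes called lower. For 7 of these all 16 samples were below the floor, so their differences are between background values and give no direction. The other 4, Ms4a1, Ms4a8a, Ms4a10 and Ms4a15, had differences from -0.29 to 0.07 (log2). Of these Ms4a10, at 0.07, was below the floor in 7 controls and all 8 NASH model samples, so its difference gives no direction either. A gene with no Ms4a name, Gm8369, lies between Ms4a6c and Ms4a6b and is named here after its values were seen. It was also called higher (0.49 ± 0.16, log2, SE; adjusted p = 0.028), with all 8 controls and 7 NASH model samples below the floor. The array files name no genome build, and the order is that of GRCm38.p6. Probe sets of such close copies may take up each other's transcripts, and this was not tested.

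**Figure D3:**
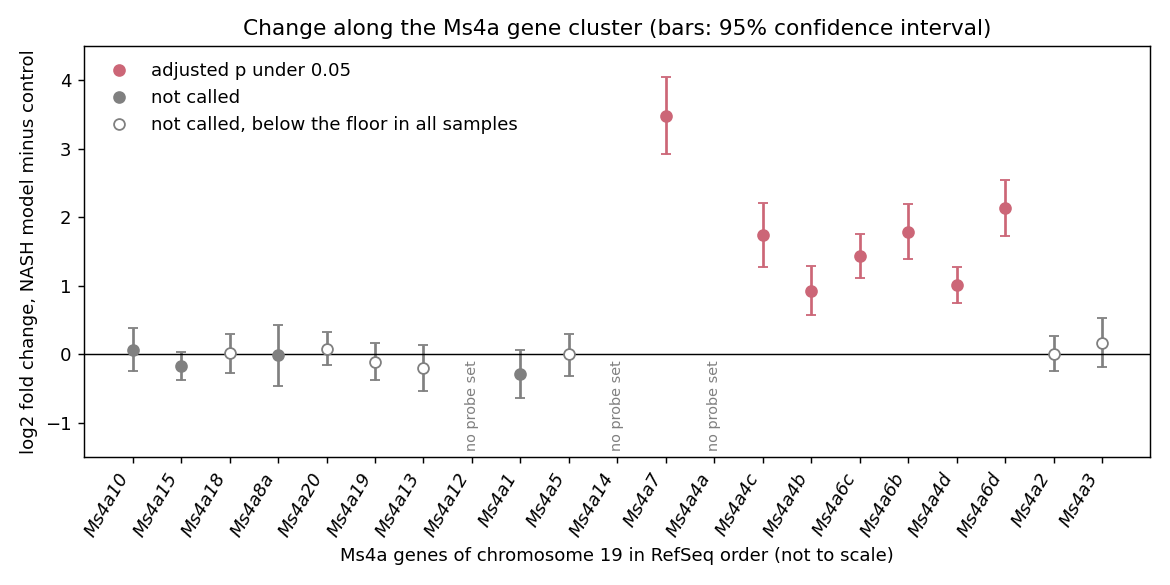
Log2 fold change, NASH model minus control, of the Ms4a genes of chromosome 19 in their RefSeq order, with 95% confidence intervals; 3 genes had no probe set. The 7 genes called higher lie together from Ms4a7 to Ms4a6d, where Ms4a4a had no probe set. The ends of this run were set by those calls, and the 11 measured genes outside it are not called. Of all genes, 13.2% were called higher and 13.4% lower. Open circles mark genes below the floor in all 16 samples. Ms4a10 is drawn filled but was below it in 7 controls and all 8 NASH model samples. Gm8369 is not drawn.

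Ms4a4d, which is no member but belongs to that run, was bright enough to be measured in every sample. It ran from 5.14 to 5.78 in the controls (median 5.34) and from 6.00 to 6.87 in the NASH model (median 6.38), with no overlap. It rose by 1.01 ± 0.12 (log2, SE; adjusted p = 3.5e-06). In the list of 12 other family genes, 11 were measured, 3 rose and 0 fell (0 also at an unadjusted p under 0.05). Of all genes, 13.2% were called higher and 13.4% lower. The median of the list was 0.02 on the log2 scale. The other 2 that rose were Tmem176b (0.93 ± 0.12, adjusted p = 5.5e-06) and Tmem176a (0.74 ± 0.16, adjusted p = 0.0015), a pair of related membrane proteins outside the cluster. Both were bright, and their NASH model samples lay close together, with SDs of 0.08 each against 0.32 and 0.47 in the controls. The 8 that did not pass were Ms4a2, Ms4a3, Ms4a5, Ms4a8a, Ms4a10, Ms4a13, Ms4a15 and Ms4a18. Ms4a2, Ms4a3, Ms4a5, Ms4a13 and Ms4a18 were below the floor in all 16 samples. Ms4a19 and Ms4a20, added after the list was written, were also below it throughout. In these livers the IgE receptor gene Ms4a2 and Ms4a3, a gene of granulocyte and monocyte progenitors, were therefore not above background.

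Of 6 genes whose products work with or are linked to Ms4a proteins, 5 were measured, and 2 rose, against 13.2% of all genes. Trem2, the lipid receptor of macrophages, ran from 2.53 to 3.65 in the controls (median 3.20) and from 6.87 to 7.45 in the NASH model (median 7.14), a rise of 4.05 ± 0.15 (log2, SE; adjusted p = 1.8e-13). Fcer1g, the signalling chain shared by IgE and IgG receptors, rose by 1.87 ± 0.13 (adjusted p = 3.3e-09). The IgE-binding chain Fcer1a (0.04 ± 0.14, adjusted p = 0.88), the costimulatory receptor Tnfrsf18 (0.02 ± 0.15, adjusted p = 0.94) and Cd40 (0.31 ± 0.15, adjusted p = 0.13) did not pass. Cd40 did pass with values as deposited and with spike-in centring (adjusted p = 0.046 in both).

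The genes most like each member were found from the root mean square difference over the 16 samples, after subtracting each gene's control mean, among 14992 genes. These were the 15677 genes not below the floor in all samples, less 684 with a predicted or clone-derived symbol and the member itself. For Ms4a7 these were Bcl2a1b, an inhibitor of apoptosis, Ubd and Anxa1, at 0.471 to 0.504 on the log2 scale. For Ms4a6d they were the lipase Pla2g7, the adhesion receptor Cd44 and the myeloid lectin Clec12a (0.317 to 0.336). For Ms4a6b they were Gpr35, the tetraspanin Cd9 and Dock11 (0.283 to 0.316). For Ms4a6c they were Lgmn, a lysosomal protease, Sdcbp and the receptor kinase Axl (0.209 to 0.238). For Ms4a4c they were the leukocyte genes Laptm5, Cd53 and Prkcb (0.369 to 0.372). No member was among the 3 nearest to another. By this measure near genes have rises of similar size. The closest members were Ms4a4c and Ms4a6c, at 0.498. Here 71 genes were nearer to Ms4a4c than Ms4a6c was, and 450 were nearer to Ms4a6c than Ms4a4c was. Between Ms4a6b and Ms4a6c, the pair with the long shared sequence, the difference was 0.534.

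The livers were checked for the cell types that carry these genes. The hepatocyte gene Alb was at 12.62 ± 0.05 in the controls and 12.64 ± 0.02 in the NASH model (log2, SD), near the top of the array's range in every sample. The part of any cell type in the members' rises was not tested. Of 10 general macrophage markers 9 were measured and all 9 rose, against 13.2% of all genes, with a median of 1.07 (log2). None of the 9 overlapped between groups, while 5.65% of all genes were higher without overlap. The summed linear intensity of the 9 markers ran from 717 to 1332 in the controls and from 2783 to 3739 in the NASH model. Lyz2, lysozyme, rose by 3.16 ± 0.17 and the complement gene C1qb by 1.26 ± 0.15 (log2, SE), and the endotoxin receptor Cd14 rose 4.01-fold. Lyz2 was also the brightest of the 9 in the NASH model, at a mean of 10.67 (log2), so it weighs most in that sum. Of 12 markers of recruited and lipid-associated macrophages 11 were measured and 10 rose, against 13.2% of all genes, with a median of 2.77. Their summed intensity ran from 184 to 376 in the controls and from 4327 to 6414 in the NASH model, where Mmp12 and Gpnmb made up 74.9% to 77.8% of it. Without these 2 genes it ran from 167 to 349 and from 1020 to 1497. Chil3 was below the floor throughout. Mmp12 (8.26 ± 0.17), Gpnmb (7.51 ± 0.19) and Lgals3 (4.08 ± 0.17) led this list, which also holds Trem2. Of 8 markers of Kupffer cells, the resident macrophages of the liver, 4 fell and 1 rose, Cd5l (0.65 ± 0.18, log2, SE). Vsig4, Marco and Clec1b did not pass. Of all genes, 13.4% were called lower and 13.2% higher, and 1 of 8 is near the latter share. The summed intensity of the list overlapped, at 604 to 1376 in the controls and 607 to 1090 in the NASH model. The falls were led by Cd163 (-2.84 ± 0.13), Timd4 (95% confidence interval -2.53 to -1.48) and Clec4f (-0.97 ± 0.23), all on the log2 scale. For Cd163 3 and for Timd4 5 NASH model samples were below the floor. With values under the floor set to it these 2 differences were -2.81 and -1.78.

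**Figure D4:**
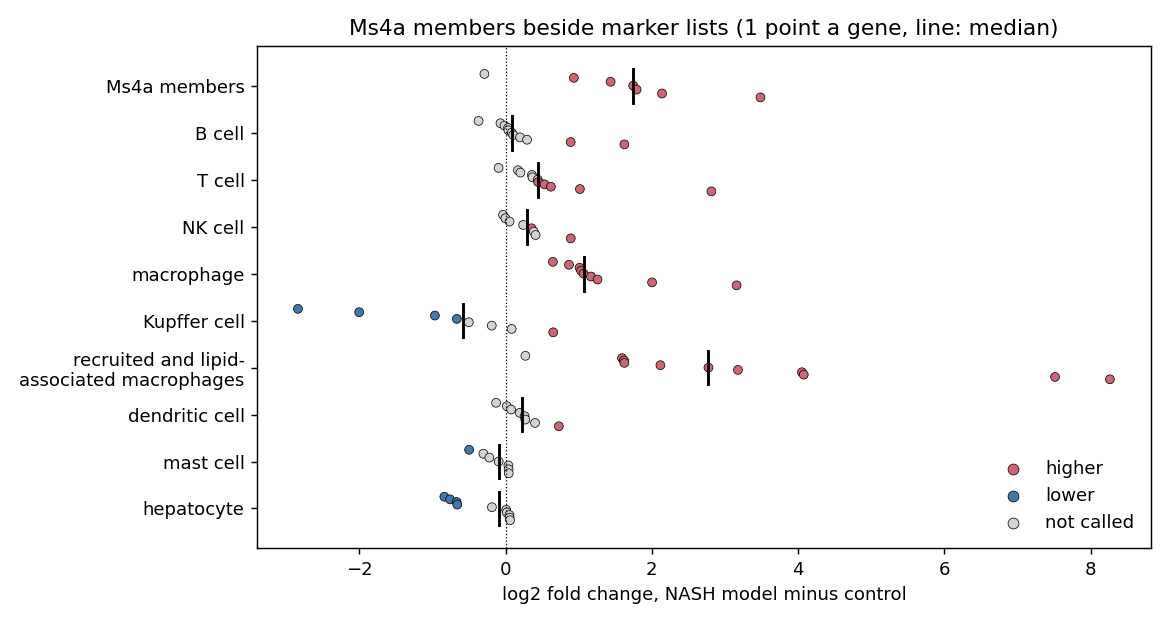
Log2 fold change of each gene of the Ms4a members and of 9 marker lists, NASH model minus control, with 1 point for each gene, coloured by its call, and the median as a line. The members' median of 1.74 lies between those of the general macrophage (1.07) and the recruited macrophage list (2.77), and the B cell list has a median of 0.08.

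Beside Ms4a1, most other B cell genes did not pass the test either. Of 12 B cell markers 11 were measured, 2 rose and 0 fell, against 13.2% of all genes called higher and 13.4% lower (limma; 1 was lower at an unadjusted p under 0.05), with a median of 0.08 on the log2 scale. Without control 1, control 9 or NASH model 5, 1 B cell marker was called lower. The antigen receptor chains Cd79a (-0.01 ± 0.18) and Cd79b (0.10 ± 0.16) did not pass. The genes that rose were Cd37 (1.62 ± 0.14) and Cd22 (0.89 ± 0.15); Cd37 is a tetraspanin of leukocytes that is not limited to B cells. The summed intensity of the list overlapped between groups, at 105.5 to 172.5 in the controls and 159.9 to 201 in the NASH model.

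Beside Ms4a4b, 5 of 11 measured T cell markers rose, against 13.2% of all genes, and 0 fell (limma, 0 also at an unadjusted p under 0.05). The median of the list was 0.44. Its summed intensity ran from 97.3 to 115.5 in the controls and from 140.3 to 188 in the NASH model. Among the markers that rose were the interleukin-7 receptor Il7r (2.81 ± 0.30), Cd8a (1.02 ± 0.20) and Cd3e (0.62 ± 0.18), a chain of the T cell receptor complex. The other chains of that complex on the list, Cd3d (0.37 ± 0.17), Cd3g (0.44 ± 0.24) and Cd247 (-0.10 ± 0.17), did not pass. Cd5, Cd2 and Cd28 did not pass either. Il7r, with a mean of 2.23 in the controls, had the highest mean of the list in the NASH model (5.04, log2). The sum without it was not taken. For Il7r 6 controls, for Cd8a 7 and for Cd3e 3 were below the floor. With values under the floor set to it Il7r was at 2.02 ± 0.22, and Cd8a (0.50 ± 0.13) and Cd3e (0.53 ± 0.17) were close. With the sample number as a block the count was 3, and Cd3e did not pass (adjusted p = 0.078). Of 8 NK cell markers 2 rose, the granule gene Nkg7 (0.36 ± 0.09) and the receptor Klrd1, and of 8 dendritic cell markers 1 rose, the growth factor receptor Flt3. The share of all genes called higher was 13.2%, and 1 of 8 is near it. For Klrd1 and Flt3 no fold is given, since all 8 controls and the NASH model mean were below the floor, and neither passed with values under the floor set to it (adjusted p = 0.33 and 0.067). Without control 10, 2 dendritic cell genes rose. Of 7 mast cell markers 0 rose (limma; 0 also at an unadjusted p under 0.05) and 1 fell, the protease Tpsb2 (-0.50 ± 0.16, adjusted p = 0.024), a share near the 13.4% of all genes called lower. That call was lost without control 9 (adjusted p = 0.051) or NASH model 3 (0.052), while 2 mast cell genes fell without NASH model 1a. Of 10 hepatocyte markers 4 fell, against 13.4% of all genes, and 0 rose (limma, 0 also at an unadjusted p under 0.05). Those that fell most were F7 (-0.84 ± 0.11), Foxa2 (-0.76 ± 0.14) and Cebpa (-0.67 ± 0.10).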

How the data were processed

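The data are log2 intensities of 29129 probe sets in 16 liver samples. RNA extracted with TRIzol was labelled with biotin for 1-colour arrays, per the labels' protocols. The authors deposited log2 values between 0.62 and 12.7. The sources used here do not give the method of summarising and normalizing. The number of arrays limits the precision.

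Values were quantile-normalized, which changed none by more than 0.16. Of the probe sets 19572 had 1 gene symbol, 0 had several and 9557 had none listed. The brightest of each gene's probe sets was kept (19505 genes). Groups were compared with limma 3.58.1 (R 4.3.3; lmFit, eBayes, two-sided), adjusted by Benjamini-Hochberg over all genes and called under 0.05. The fit was tested on simulated data. Promoters were aligned with Biopython 1.88. The planned comparison of proteins was not run.

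The members and lists were chosen with earlier results of these data known, and the floor (1412 receptor genes) was set after seeing them. Named are all members, other family and partner genes, and the 3 called genes of each marker list with the largest folds. Also named are the 3 genes most like each member called with a log2 change of 1 or more. A few other list genes, such as Cd5l and Cd79a, are named beside these. Faim3 was matched under its current symbol Fcmr, and list genes without a probe set are not analysed here. Whether the samples are separate animals is not stated, and p-values then reflect only sample-to-sample spread, which may be technical. NASH model 1a and 1b share a number and may come from the same animal, but were kept apart. They differed by an SD of 0.387 across genes, within the 0.340 to 0.466 of the 27 other NASH model pairs. This spread over all genes cannot tell samples of the same animal from samples of different animals. With the mean of 1a and 1b as 1 sample 5038 genes were called, and the calls of the members did not change.

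The alternatives were 4 other scalings, a filter on dim genes, the mean of a gene's probe sets, 2 other limma settings, treatments of 1a and 1b, the omission of samples, an exact permutation test, a block on sample numbers and, added after seeing the data, a fit with values under the floor set to it.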

Additional observations from a re-analysis of the deposited data

Results flagged for a closer look

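Of 50 sets of 8 samples (25 genes in 2 groups), 2 held a sample far from the other 7, and chance alone gives about 1 in 20. Ms4a6b in NASH model 5 was at 4.16, against 5.02 to 5.24 in the other 7. Ms4a2 in control 9 was at 2.31, against 1.39 to 1.73 in the other 7, but all these values lie below the floor of 2.89.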

How the results depend on the processing

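All 7 members kept their direction and their side of the threshold in every alternative run, with 6 called higher and 0 lower. The filter on the dimmest 40% of genes removed Ms4a1 and Ms4a4b, and the other 5 were called. The difference of Ms4a7 ran from 2.96 to 3.63 on the log2 scale, that of Ms4a6c from 1.26 to 1.64 and that of Ms4a1 from -0.39 to -0.16 (adjusted p from 0.06 to 0.54). The exact permutation test (two-sided, 12870 regroupings) gave p = 0.00016, the smallest it allows, for Ms4a4c, Ms4a6b, Ms4a6c, Ms4a6d and Ms4a7, 0.00031 for Ms4a4b and 0.13 for Ms4a1. The labels do not say whether shared sample numbers pair the samples. Over 7 pairs of like number the correlation of deviations ran from -0.03 to 0.06, and 1 sample matched its own number best. Control 1 served for both 1a and 1b. This check found no likeness within pairs but cannot exclude a pairing. With the replicate block 6 members were still higher and 0 lower, Ms4a7 at 3.60. Setting values under the floor to the floor, added after seeing the data, gave the lowest difference of Ms4a7 (2.96), Ms4a4b (0.31) and Ms4a4c (1.49).

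Differences near 0, none of them called, changed sign. Ms4a2, Ms4a5, Ms4a18 and Ms4a20 were below the floor in all samples, so theirs give no direction. With values as deposited Ms4a2 was at -0.04, Ms4a8a at 0.03 and Ms4a18 at -0.05. With array medians Ms4a2 was at -0.12, Ms4a10 at -0.07, Ms4a18 at -0.13, Fcer1a at -0.07 and Ms4a20 at -0.06. Ms4a5 was at 0.03 with cyclic loess and with spike-in controls, 0.02 without NASH model 2 and 7 and 0.04 with the replicate block. Ms4a8a was at 0.12 with spike-in controls, the floor setting put Ms4a10 at 0.00 and Fcer1a at -0.06, and the block put Ms4a18 at -0.06 and Tnfrsf18 at -0.04. When samples were left out in turn, Ms4a2 ran from -0.04 to 0.11, Ms4a5 from -0.09 to 0.06, Ms4a8a from -0.12 to 0.09, Ms4a18 from -0.04 to 0.10, Fcer1a from -0.02 to 0.11 and Tnfrsf18 from -0.08 to 0.09. Beside the changes given above with single samples, 1 hepatocyte marker was higher with cyclic loess, 0 mast cell markers were lower with spike-in controls, and 0 Kupffer cell markers were higher with the replicate block. The dim-gene filter, which removes genes, left 1 NK cell marker and 0 dendritic cell markers higher, 0 mast cell markers lower and 1 B cell marker lower. With values under the floor set to it, 1 NK cell marker and 0 dendritic cell markers were higher. The other causes were not tested. Values near the floor limit the folds of Ms4a4b, Ms4a4c, Ms4a6b, Ms4a6d and Ms4a7.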
